A study of Homo sapiens with 2 samples.

Results

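Aminoacyl-tRNA synthetases were followed in MDA-MB-231 cells, an established human breast carcinoma line of mesenchymal character, on 1 array of parental control cells and 1 array of a clone in which UGT8 was stably knocked down. UGT8 encodes the ceramide galactosyltransferase that makes galactosylceramide. The members were all genes whose symbol names a cytosolic or mitochondrial synthetase, together with the scaffold genes AIMP1, AIMP2 and EEF1E1. Of the 41 genes in this rule, 37 had at least 1 probe set assigned to them alone, 96 probe sets in all, out of 18244 genes and 49495 probe sets on the array. The other 4 genes of the rule, AIMP2 and EEF1E1 among them, were not analysed here.

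Both groups were grown in DMEM with 5.6 mmol/L glucose and harvested 48 h after passage. The labels used here do not name the knockdown reagent or a vector control. The knockdown cells were 1 clone and the control cells the parental line, so effects of cloning and of UGT8 loss cannot be told apart. With 1 array per group there is no replicate check, no difference below was tested, and each describes these 2 arrays only. Values are log2 RMA values, and a difference is the knockdown value minus the control value. A gene was read by its brightest probe set, and genes whose mean over both arrays lay under the median of all non-control probe sets (log2 6.65, called the floor) were left out of counts. This kept 36 of the 37 members and 10426 genes in all. Where a gene had several probe sets past the floor (6056 genes), their differences had a median SD of 0.08. It covers disagreement between probe sets on the same arrays and is no replicate error.

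The UGT8 probe sets read lower on the knockdown array with differences from -2.34 to -1.68. Of the markers fixed for this line, VIM, CD44 and AXL lay past the floor on both arrays and ESR1 and PGR below it, while ERBB2 and CDH1 lay past it. Of the markers of other cells, PTPRC, CD3E, CDH5 and VWF lay below the floor, whereas CD68 (0.13) and PECAM1 (-1.09) lay past it. The hybridisation control RNAs, read by 18 probe sets, had a median difference of 0.51, and the 24 probe sets of the poly-A controls one of 0.08. Centring on the former moves the median of all genes from 0.03 to -0.48 and leaves 4 members above 0, FARS2, CARS2, YARS2 and MARS2. Directions below are against 0 on the deposited scale, not against the median of all genes. The 3' minus 5' signal of ACTB, a sign of RNA integrity, was 0.49 in the control and 0.90 in the knockdown RNA, and that of GAPDH was 0.18 and 0.19. The part of these readings in the differences below was not tested.

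Aminoacyl-tRNA synthetases join each amino acid to its tRNAs and so set the meaning of the genetic code. Human cells have separate nuclear genes for the cytosolic and the mitochondrial enzyme of most amino acids. The glycine and lysine enzymes are each made from a single gene for both compartments. The enzymes fall into classes I and II, which differ in the fold of the catalytic domain. Several cytosolic enzymes sit with the scaffold proteins in the multisynthetase complex. Many cytosolic synthetase genes are known targets of ATF4, the transcription factor of the amino acid response, which binds with a C/EBP partner at a composite element called CARE.

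Promoter windows that hold the letters of this element are printed here because more cytosolic than mitochondrial members had them. The windows ran from 250 bases before to 50 bases after the start site (RefSeq, GRCh38.p14) and were found for 31 of the 37 members. None was found for AARS2, LARS1, TARS3, VARS1, VARS2 and YARS1. The letters TGATGNAA on either strand were present in 6 of 14 cytosolic windows (42.9%), in 1 of 14 mitochondrial windows (7.14%) and in 0 of 2 windows of the dual-compartment genes. Among all 27305 windows they were present in 3.67%, and among the 8679 of genes past the floor in 1.66%. The 6 cytosolic windows and that of YARS2 are given as 30 bases around the match, which is in capitals.
AARS1 (chr16:70289675-70289704, minus strand): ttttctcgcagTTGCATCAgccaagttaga
CARS1 (chr11:3057407-3057436, minus strand): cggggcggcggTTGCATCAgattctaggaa
IARS1 (chr9:92293692-92293721, minus strand): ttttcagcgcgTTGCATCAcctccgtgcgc
MARS1 (chr12:57488053-57488082, plus strand): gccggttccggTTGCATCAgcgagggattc
NARS1 (chr18:57621804-57621833, minus strand): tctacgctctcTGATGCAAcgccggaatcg
TARS1 (chr5:33440956-33440985, plus strand): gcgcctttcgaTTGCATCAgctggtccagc
YARS2 (chr12:32756076-32756105, minus strand): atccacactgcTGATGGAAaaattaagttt
In 5 of the 6 cytosolic windows the match began within 14 bases of the start site, and in AARS1 it began 187 bases before it. A match is a description of letters and not a shown binding site.

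As a family the synthetase genes read slightly higher on the knockdown array. Of the 36 members past the floor, 29 were above 0 and 28 were above the median of all genes (0.03). With the probe sets of a gene combined, 24 to 25 were above that median. Raising the floor to the 75th percentile left 23 members, 16 of them above the median of the genes then kept. Over the 36 members past the main floor the median difference was 0.21, with a range from -0.31 to 0.71. The middle of all genes, from the lower to the upper quartile, ran from -0.19 to 0.24, so the median member lay inside it. At the threshold of 1.5-fold, 1 member was higher (2.78%) and 0 were lower, where 4.95% of all genes were higher and 6.74% lower. The split of all genes past that threshold was 42.3% higher on the deposited scale, 28.1% after centring on the poly-A controls and 1.28% after centring on the hybridisation controls. At least 25% higher were 9 of the 36 members, beside 18.0% of all genes, and 0 were lower by the same fold, beside 16.1% of all genes. The members thus lay within the ordinary range of the array, with few on its lower side: 14 lay above the upper quartile of all genes and 1 below the lower quartile.

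**Figure D1:**
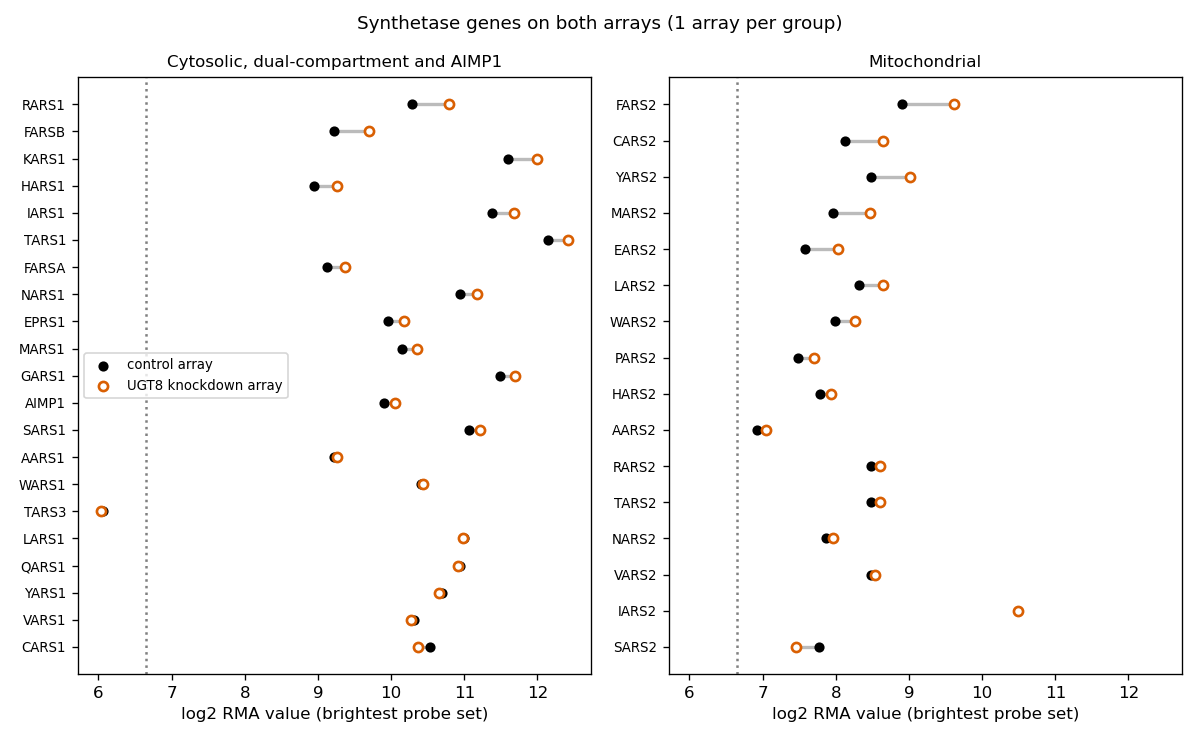
Log2 RMA value of each synthetase gene on the control array (filled) and the UGT8 knockdown array (open), read by its brightest probe set, with 1 array per group and the dotted line at the floor. Most open points lie to the right of their filled point, by up to 0.71 for FARS2, and TARS3 alone lies left of the floor. The shift is on the deposited scale, and 4 members stay above 0 when centred on the hybridisation controls.

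The cytosolic and the mitochondrial enzymes had nearly the same median. The 17 cytosolic genes past the floor had a median difference of 0.21 (SD over genes 0.19, 12 above 0), and the 16 mitochondrial genes one of 0.18 (SD over genes 0.26, 14 above 0). The medians were 0.18 and 0.16 after removal of a loess trend on mean level. With probe sets past the floor averaged they were 0.15 and 0.19, and with all probe sets averaged 0.15 and 0.14. Their order thus depended on how probe sets were combined. The mitochondrial genes read at a lower signal, with a median mean level of 8.30 against 10.45. Read by the brightest probe sets, they held the extremes at both ends, FARS2 and SARS2. With probe sets past the floor averaged, the cytosolic gene VARS1 (-0.34) lay below SARS2 (-0.31). At least 25% higher were 6 of the 16 mitochondrial and 2 of the 17 cytosolic genes, beside 18.0% of all genes.

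Among the mitochondrial enzymes, the gene of the phenylalanine enzyme stood apart. FARS2 went from 8.90 in control to 9.62 in knockdown cells, 1.64-fold higher, and was the only member past 1.5-fold. Centred on the hybridisation controls, FARS2 differed by 0.20. Its other probe set gave 0.72 against 0.71 for the brightest, and it ranked at place 276 of the 10426 genes, counted from the highest difference. The next were the genes of the cysteine, tyrosine and methionine enzymes. CARS2 went from 8.12 to 8.65 (0.53) and YARS2, which has a single probe set, from 8.49 to 9.01 (0.53). MARS2 went from 7.96 to 8.47 (0.52), and its remaining probe sets gave larger differences, up to 0.66. Averaged over its 3 probe sets MARS2 differed by 0.61, which passes 1.5-fold. EARS2, whose enzyme charges glutamate in mitochondria, followed at 0.45 and the leucine gene LARS2 at 0.33.

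At the other end, SARS2, the mitochondrial serine enzyme, went from 7.77 to 7.46 (-0.31). With its dim second probe set averaged in, SARS2 differed by -0.13. IARS2, for isoleucine, read 10.50 and 10.48 (-0.01). VARS2, for valine, went from 8.49 to 8.54 (0.05), and NARS2, for asparagine, from 7.87 to 7.96 (0.10). These last 3 lay within the typical spread between probe sets or close to it. The remaining mitochondrial genes, WARS2, PARS2, HARS2, AARS2, RARS2 and TARS2, lay between 0.12 and 0.28.

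Of the cytosolic enzymes, the arginine enzyme gene had the largest difference. RARS1 went from 10.29 to 10.79 (0.50, 1.42-fold), and its 2 probe sets gave 0.50 and 0.53. The phenylalanine enzyme of the cytosol is built from an alpha and a beta subunit. FARSB, the beta subunit, went from 9.22 to 9.70 (0.48), with 4 probe sets between 0.42 and 0.58, while FARSA, the alpha subunit, went from 9.13 to 9.37 (0.24). With FARS2, all genes of phenylalanine charging were on the higher side of 0. The histidine gene HARS1 went from 8.94 to 9.26 (0.32) and the isoleucine gene IARS1 from 11.37 to 11.69 (0.31). The dual-compartment genes were also above 0: the lysine gene KARS1 went from 11.60 to 11.99 (0.39) and the glycine gene GARS1 from 11.48 to 11.70 (0.21).

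Of the other cytosolic genes above 0, the threonine gene TARS1 lay at 0.27, the asparagine gene NARS1 at 0.23, the serine gene SARS1 at 0.15 and the alanine gene AARS1 at 0.04.

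The 5 cytosolic genes past the floor that lay below 0 all belonged to class I. CARS1, for cysteine, went from 10.53 to 10.37 (-0.16), with its 3 probe sets between -0.18 and -0.16. VARS1, for valine, went from 10.31 to 10.27 by its brightest probe set (-0.04), but its other 3 probe sets gave -0.52 to -0.39 and their average with the brightest was -0.34. YARS1, for tyrosine, differed by -0.04 (10.69 and 10.65), and the leucine gene LARS1 by -0.02. QARS1, for glutamine, went from 10.94 to 10.92 (-0.03), with a second probe set at -0.26. WARS1, the tryptophan enzyme gene that interferon-gamma is known to induce, lay at 0.03 (10.40 and 10.43), just under the median of all genes. By their brightest probe sets VARS1, YARS1, LARS1 and QARS1 lay within the typical probe-set spread of 0.08. The medians by class were added after the data were seen. Over the 9 cytosolic class I genes the median was -0.02 with 4 above 0. For the 7 of class II it was 0.24 with all 7 above 0. In mitochondria the order was the other way round, with a median of 0.33 over 9 class I genes and 0.13 over 7 class II genes. After centring on the hybridisation controls the cytosolic class II median was -0.27, and the class I median stayed below it at -0.54. The glutamate and proline enzyme gene EPRS1, which carries a domain of each class, was at 0.22 (9.95 and 10.18) and was counted in neither.

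**Figure D2:**
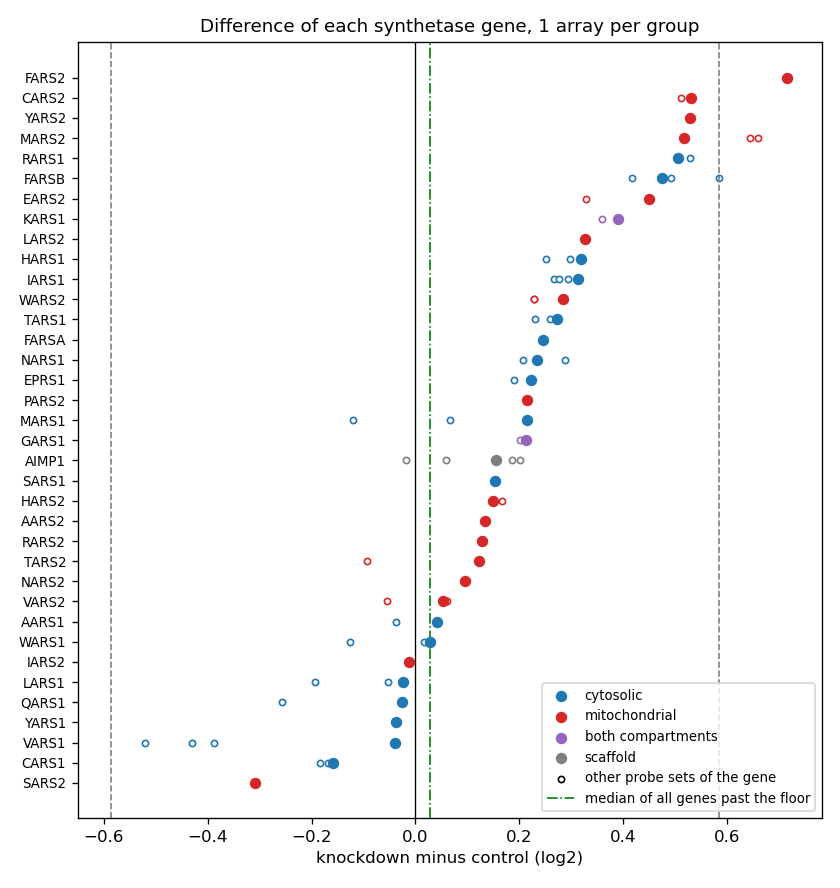
Knockdown minus control (log2) for the 36 synthetase genes past the floor, with the brightest probe set filled, the other probe sets past the floor open and dashed lines at 1.5-fold. FARS2 alone has its brightest probe set past a dashed line, and VARS1 and MARS1 show the widest disagreement between probe sets. Centring on the hybridisation controls would move every point left by 0.51.

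Agreement between probe sets limits several of these readings. In 25 members more than 1 probe set passed the floor, and in 19 of these the probe sets lay on the same side of 0. The exceptions were AARS1, AIMP1, MARS1, TARS2, VARS2 and WARS1. MARS1, for methionine, went from 10.14 to 10.36 (0.21) by a probe set whose suffix marks possible cross-hybridisation, and its 2 other probe sets past the floor gave 0.07 and -0.12. Probe sets of a gene can share sequence and are not independent readings. TARS3, a second cytosolic threonine enzyme gene, read 6.06 and 6.03, below the floor on both arrays.

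The members of the multisynthetase complex had a median close to that of the other cytosolic genes. The 8 complex genes past the floor had a median of 0.22, with 6 above 0 and 0 past 1.5-fold. Of all genes, 4.95% were higher and 6.74% lower by that fold. The 12 cytosolic or dual-compartment genes outside it had a median of 0.18. Within the complex RARS1, KARS1 and IARS1 were highest, and QARS1 and LARS1 lay just below 0. AIMP1, the scaffold gene that was measured, went from 9.90 to 10.06 (0.16), with its 5 probe sets between -0.02 and 0.20.

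Set side by side for each amino acid, the cytosolic and mitochondrial genes differed in both directions. Both genes were measured for 16 of 17 amino acids, with EPRS1 used for both glutamate and proline and the mean of FARSA and FARSB for phenylalanine. The mitochondrial gene had the larger difference in 9 pairs and the cytosolic gene in 7, and the median of cytosolic minus mitochondrial was -0.09. The proline pair, apart by 0.01, changed side after loess and with probe sets past the floor averaged. The cytosolic gene was then higher in 6 pairs. Without probe sets of cross-hybridisation suffix, the cytosolic gene was higher in 7 of the 13 pairs left. The valine pair, at -0.09, went to 0.01 in that setting and to -0.36 with probe sets past the floor averaged. The contrasts within pairs are the same on any scale that shifts all probe sets alike. Read by the brightest probe sets, the cysteine pair was the only pair apart by at least 1.5-fold, with CARS1 at -0.16 and CARS2 at 0.53. The tyrosine pair was next, with YARS1 at -0.04 and YARS2 at 0.53. The methionine pair, with MARS1 and MARS2 apart by -0.30, reached -0.59 with all probe sets averaged and -0.62 by their median, past 1.5-fold and wider than the tyrosine pair (-0.57). In the opposite direction were the serine pair, with SARS1 at 0.15 and SARS2 at -0.31, and the arginine pair, with RARS1 at 0.50 and RARS2 at 0.13. The sign was opposite within 6 of the pairs on the deposited scale.

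**Figure D3:**
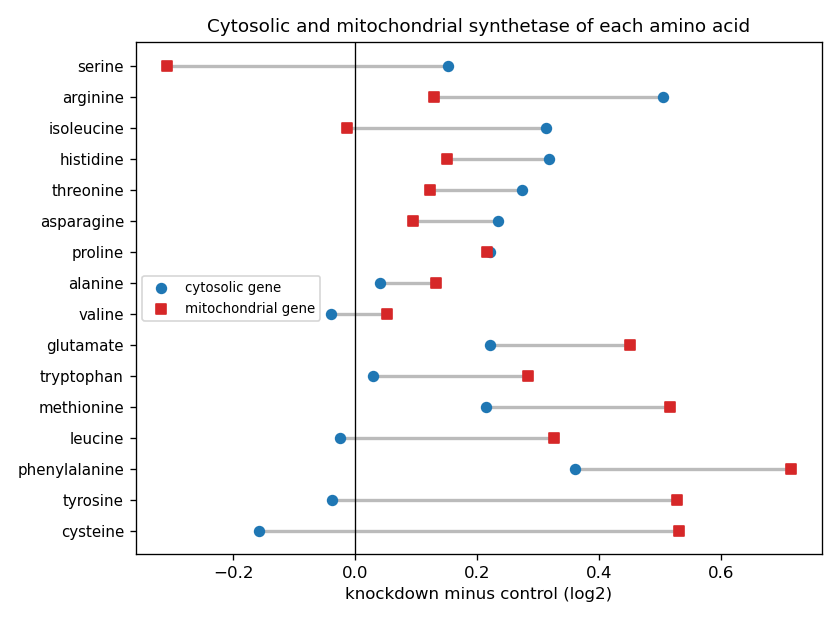
Knockdown minus control (log2) of the cytosolic (circle) and mitochondrial (square) synthetase gene of each amino acid, ordered by their difference, with 1 array per group. Squares lie to the right of circles in 9 of 16 rows, most of all for cysteine, and circles lie to the right in 7. A shift of all probe sets, such as centring on the hybridisation controls, moves both points of a row alike.

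Read by the brightest probe sets, cytosolic members with and without the CARE letters had nearly the same median difference. The 6 cytosolic genes with a match had a median of 0.22, from -0.16 in CARS1 to 0.31 in IARS1. The 8 with a window but no match had one of 0.23. The former median rests in part on MARS1 (0.21), which fell to 0.05 with probe sets past the floor averaged. The contrast was not computed on combined probe sets. LARS1, VARS1 and YARS1, which had no window and lay below 0, are in neither group. Over all genes past the floor the median was 0.09 for the 144 windows with the letters and 0.03 for the 8535 without. The E-box CACGTG, which MYC and other helix-loop-helix factors bind, was present in 3 of 14 mitochondrial windows and 1 of 14 cytosolic windows (IARS1), against 10.5% of windows of genes past the floor. Those 3 mitochondrial windows are shown because their genes were among the 5 highest mitochondrial members, a point noticed after the values were seen.
CARS2 (chr13:110706501-110706530, minus strand): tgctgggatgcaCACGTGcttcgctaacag
EARS2 (chr16:23557348-23557377, minus strand): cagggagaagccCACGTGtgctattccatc
MARS2 (chr2:197705346-197705375, plus strand): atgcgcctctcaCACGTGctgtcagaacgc
The E-box began 3, 15 and 11 bases before the start site in CARS2, EARS2 and MARS2. These genes had a median of 0.52, against 0.15 for the 11 mitochondrial windows without the letters, FARS2 among them. As the 3 genes were singled out after their values were seen, this contrast is no test of the E-box. Over all genes past the floor the median was 0.06 for the 908 windows with an E-box and 0.03 for the 7771 without. The MYC gene itself went from 11.34 to 11.52 (0.17). The interferon element letters GAAANNGAA were present in AIMP1, EARS2, GARS1 and IARS1, beside 6.15% of windows of genes past the floor. No match of one motif overlapped that of another in these windows.

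Genes of the ATF4 pathway outside the synthetases were not shifted in 1 direction. Of 35 listed ATF4 targets, 32 lay past the floor, with 16 above 0 and 16 below and a median of -0.02. At 1.5-fold 1 of the 32 was higher, beside 4.95% of all genes: the leucine transporter gene SLC7A5 (0.62). Another 3 of the 32 were lower, beside 6.74% of all genes: the mTOR inhibitor gene DDIT4 (-1.27), the neutral amino acid transporter gene SLC38A2 (-0.76) and the lipoprotein receptor gene VLDLR (-0.70). ASNS, the asparagine synthetase gene, went from 11.30 to 11.08 (-0.23). ATF4 itself read 12.12 and 12.15 (0.03), and EIF2AK4, which encodes the kinase GCN2 that senses uncharged tRNA, went from 9.59 to 9.38 (-0.21). Of the 10 sensors and regulators of the integrated stress response, 0 passed 1.5-fold, and their median was -0.04. The 15 listed genes of the unfolded protein response had a median of -0.26. They include ER chaperones, the transcription factor gene XBP1 and the degradation genes EDEM1, SEL1L and HERPUD1. Of the 15, 2 were lower by at least 1.5-fold, EDEM1 (-0.75) and DNAJB9 (-0.64), beside 6.74% of all genes, and 0 were higher.

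Genes that make and modify tRNA had a larger median difference than the synthetases. Of 51 listed genes of tRNA processing, modification and export, 45 lay past the floor (median 0.32). Above 0 were 42 of the 45, beside 53.5% of all genes. At 1.5-fold 13 were higher and 0 lower, beside 4.95% and 6.74% of all genes. RPP40 (7.56 and 8.64, 1.08), POP5 (1.03) and POP1 (0.92) encode subunits of RNase P and the related RNase MRP. HSD17B10 (0.90) encodes a subunit of mitochondrial RNase P, PUS7 (0.84) a pseudouridine synthase and TRMT6 (0.76) a subunit of a tRNA methyltransferase. The tRNA export receptor gene XPOT, named after its value was seen, lay at -0.04. Of 19 mitochondrial translation factors and mitochondrial tRNA modification enzymes, 16 lay past the floor with 15 above 0, and 0 passed 1.5-fold (median 0.30). Trans-editing and selenocysteine enzymes had 6 genes past the floor, all above 0 (median 0.21), with DTD2, whose product clears wrongly charged tRNA, 1.52-fold higher. The elongation list held cytosolic elongation factors and the modifying enzymes EEF2K, DHPS and DOHH, 11 genes in all. Its median was -0.02, with 5 genes above 0 and 0 past 1.5-fold. The 12 interferon-gamma induced genes past the floor had a median of -0.37. Of the 12, 2 were at least 1.5-fold lower, GBP2 (-1.22) and IDO1 (-0.67), beside 6.74% of all genes, and 0 were higher. Centred on the hybridisation controls, the medians were -0.19 for tRNA processing and -0.21 for mitochondrial translation. They were -0.53 for the elongation list and for ATF4 targets and -0.89 for interferon-gamma induced genes.

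**Figure D4:**
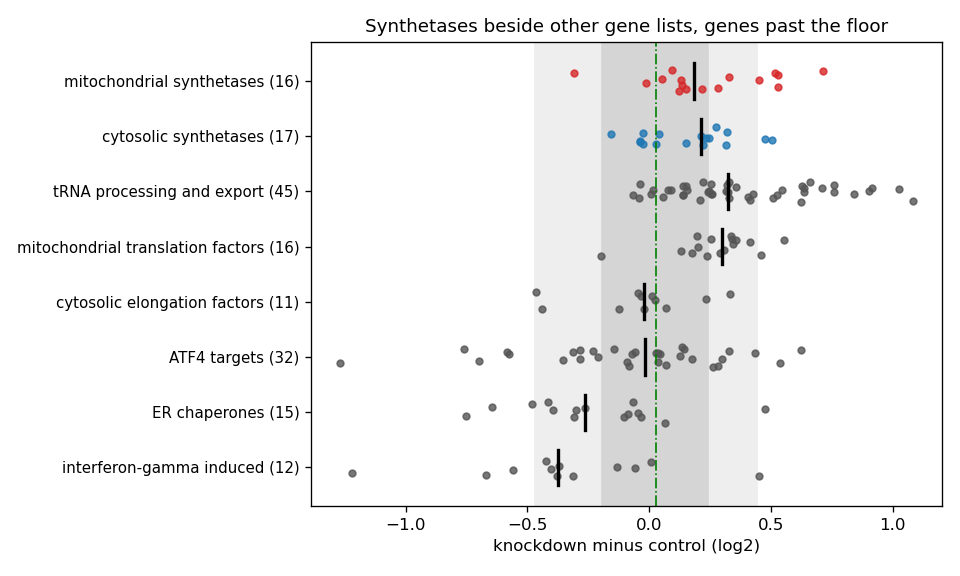
Knockdown minus control (log2) of genes past the floor in each list, with the number of genes in brackets, the list median as a black bar, all genes from their 10th to 90th percentile in light grey, their quartiles in dark grey and their median as a green line. Both synthetase rows have their median between the green line and the upper quartile, below the tRNA processing row (0.32) and above the ATF4 target row (-0.02). Centring on the hybridisation controls moves all rows and the grey bands left by 0.51. The elongation factor row includes EEF2K, DHPS and DOHH, and the ER chaperone row includes XBP1, EDEM1, SEL1L and HERPUD1.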

How the data were processed

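Total RNA of the control and knockdown cells was labelled with biotin and hybridised to 1 Affymetrix array per group. The values deposited by the authors are log2 values from RMA, per the submitters' processing notes. RMA subtracts background, makes the arrays' distributions alike and gives each probe set 1 value. For its software and the genome build, nothing is given in the sources used here, and scanner files were not used here. Normalization between arrays removes a shift common to most transcripts. The 2 arrays limit the precision.

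The platform annotation gave 45278 of 49495 probe sets a single gene symbol, 1333 several and 2682 none, and 202 were controls. Symbols were updated by gene ID to RefSeq (GRCh38.p14). Each gene was read by the probe set with the highest mean, with a floor at the 50th percentile of mean level. Results for some items are not reported here. Members and lists were chosen with earlier results of these data known. Values on both arrays were printed for members past 1.5-fold and for the 4 highest and lowest cytosolic and mitochondrial members. Of each other list, up to 6 genes past 1.5-fold with the largest differences were named. Alternatives were other floors and thresholds, combined probe sets, probe sets without cross-hybridisation suffixes, and centring by median, loess (fraction 0.3) or control RNAs. Computation used Python 3.11.15, pandas 2.3.3 and statsmodels 0.14.6, and the code was tested on simulated data.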

Additional observations from a re-analysis of the deposited data

How the results depend on the processing

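No paired analysis was possible because each group holds 1 array, and no array could be left out. Of 81 summary values under the alternatives, 68 stayed within 1.5 times (counts) or within the probe-set spread of 0.08 (medians), and 13 moved. With the floor at the 75th percentile, 3 mitochondrial genes remained, with a median of 0.53, and the cytosolic gene was higher in 1 of 3 pairs. Averaging probe sets past the floor, averaging all of them or taking their median gave 2 members at least 1.5-fold higher, FARS2 and MARS2. A threshold of 25% higher gave 9 members and one of 2-fold gave 0. Centring on the hybridisation controls gave 0 higher and 2 lower (CARS1 and SARS2), with medians of -0.30 (cytosolic), -0.33 (mitochondrial), -0.29 (complex) and -0.53 (ATF4 targets). The cause was not tested. Of 584 values of single genes, class medians and pairs, 504 stayed within 0.08 and 80 moved. The class medians and pairs were added after the data were seen. Part of both tallies was fixed in advance. Centring on the median of all genes (0.029) or on the poly-A controls (0.075) shifts every value by less than the spread (0.083). A constant shift leaves pairs unchanged, and lower floors keep the brightest probe set of a gene. Such values could not have moved. Centring on the hybridisation controls put 25 members on the other side of 0, and centring on the poly-A controls 3 (AARS1, VARS2 and WARS1). The other alternatives moved VARS2, WARS1, both or neither across 0. FARS2, the single member past 1.5-fold, stayed above 0.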

Other observations

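Several probe sets name a member beside another gene and were left out above. The 2 shared by VARS2 and its neighbour GTF2H4 differed by 0.57 and 0.40, where the brightest VARS2 probe set differed by 0.05. The 2 shared by SARS2 and FBXO17 differed by 0.04 and -0.20, where SARS2 alone differed by -0.31. One shared by TARS2 and EMX1 differed by 0.30. One shared by HARS1, ATP13A5 and VSIR differed by 0.04. Which gene each of these reads was not tested.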
